A study of Mus musculus with 3 samples.

Results

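The nuclear factor I (NFI) genes Nfia, Nfib, Nfic and Nfix encode a small family of transcription factors, and their transcripts were followed across 3 days of mouse trunk development. The 4 members (identifiers ENSMUSG00000028565, ENSMUSG00000008575, ENSMUSG00000055053 and ENSMUSG00000001911, in the order just given) were taken by symbol from the 33696 genes of the deposited matrices. They were chosen by their stage pattern, already known from UMI counts of these libraries, so the levels below are a description and no test was made. The study, on the origins of brown fat, profiled the trunks of mouse embryos between the C3 and T2 body segments, freed of forelimbs and thoracic organs and with the neural tube left in. One droplet-based 3' single-cell library (10x Chromium, version 3.1 chemistry) was made per stage, at E11.5, E12.5 or E13.5 (days of embryonic development). Each library pooled TrypLE-dissociated cells of 3 littermates. No strain, genotype or treatment is named for any of the 3 groups, which differ in stage.

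NFI proteins share a DNA-binding domain that reads the paired half-sites TTGGC and GCCAA, and they bind as homodimers or heterodimers of the family. In the mouse spinal cord NFIA and NFIB act at the start of gliogenesis, downstream of SOX9, and the family also marks late-born neurons. NFIX drives the switch from embryonic to fetal muscle genes in myoblasts, and NFIA has been tied to the brown fat programme.

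Since the proteins bind paired half-sites and the members' levels shared a stage pattern, the promoters of the members were searched for the NFI motif itself. RefSeq (build GRCm38.p6) gives 1 start for Nfia, 1 for Nfic and 4 for Nfix, each with 300 bases around the start. The Nfib promoter is not used here. The Nfia window, chr4:97581693-97581992 on the plus strand, held no TTGGC on either strand, nor did the Nfic window. The fourth Nfix start, chr8:84772826-84773125 on the minus strand, held 2 half-sites, and the other Nfix starts held 0, 1 and 1. Both sequences below run 5′ to 3′ and any half-site is in capitals.

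Nfia: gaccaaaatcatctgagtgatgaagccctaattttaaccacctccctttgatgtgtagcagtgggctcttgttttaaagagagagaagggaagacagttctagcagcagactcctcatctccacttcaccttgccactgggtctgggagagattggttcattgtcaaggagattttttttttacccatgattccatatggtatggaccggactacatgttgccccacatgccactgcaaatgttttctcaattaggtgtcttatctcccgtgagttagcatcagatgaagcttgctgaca

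Nfix, start 4: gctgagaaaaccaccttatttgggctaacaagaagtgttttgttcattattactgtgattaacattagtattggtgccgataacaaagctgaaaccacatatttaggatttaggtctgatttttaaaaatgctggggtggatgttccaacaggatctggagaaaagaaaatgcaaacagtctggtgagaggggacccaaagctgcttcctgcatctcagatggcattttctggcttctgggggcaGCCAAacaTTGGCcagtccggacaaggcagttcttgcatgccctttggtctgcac

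In the Nfix window the half-sites stand as GCCAAacaTTGGC, a pair that points outward and is not the full palindrome. The full motif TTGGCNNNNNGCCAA, its own reverse complement, was in 12 of 32851 RefSeq promoters of this length (0.0365%) and in none of the members' windows. A TTGGC on either strand was in 46.7% of promoters, and 2 or more in 14.4%, a full motif counting as a pair of half-sites too. A match is a description of sequence and does not show binding, and no match says only that these letters are not in the window. Transcripts of different members shared 0 runs of 50 bases in the GENCODE M21 annotation.

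The libraries held 94155624 to 113402193 UMIs (unique molecular identifiers, 1 per captured transcript). Barcodes with 4000 UMIs or more were taken as cells, which gave 6334, 6201 and 7594 cells over the 3 stages (E11.5 first), with median depths of 12494, 11046 and 10261 UMIs. Depths of the classes differed too, and the median neural cell had 10293, 8251 and 6363 UMIs. Between 10 and 16 cell barcodes were shared by any 2 libraries. Each cell was thinned to 4000 UMIs and assigned to the class whose marker list it expressed most fully, with at least 3 markers and 1.5 times the score of the next class. Mesenchyme (Pdgfra, Prrx1, Twist1 and others) held 2305, 2650 and 3560 cells at the 3 stages, neural cells 2539, 1895 and 515, and muscle (Myod1, Myog and others) 132, 271 and 343. Unassigned cells were 14.5, 12.9 and 21.6%. The median mesenchymal cell expressed 5 of 12 markers of its class, and the median muscle cell 7 of 15. Xist was found in 66.0, 27.1 and 90.5% of cells and a Y-linked UMI in 30.4, 60.6 and 2.45%, so these shares moved with the stage too. With 1 library per stage, stage cannot be told apart from library, and each interval is a 95% interval of the counting error alone. A level summed over a class cannot tell fewer expressing cells from less RNA per cell.

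RNA free in the droplets was a measured background. Droplets with 50 to 500 UMIs held Nfib at 33.4, 121 and 156 CPM over the 3 stages, where CPM are UMIs of a gene for every 1000000 UMIs of the group. From the collagen UMIs (Col1a1, Col1a2, Col3a1) of macrophages and neural cells, free RNA was 35.7, 32.5 and 47.2% of UMIs, which would give a cell with no NFI transcript of its own 11.9, 39.2 and 73.6 CPM of Nfib and 1.61, 11.2 and 27.2 CPM of Nfix. From globin UMIs the estimate was 2.11, 1.61 and 2.15%. The class gated with globin markers (133, 297 and 696 cells) held Nfib at 12.4, 64.2 and 137 CPM. Its median cell carried 10, 8 and 7 of the 11 erythroid markers, most of which are globins also found as free RNA, so the class may hold other cells. Erythroid cells picked without globin markers, a choice made after the data were seen, held Nfib at 9.79, 2.20 and 6.39 CPM in 100, 52 and 63 cells. At all 3 stages these values lie under the level that the collagen estimate gives. That estimate may thus be too high, here and where it is used below. The class with globin markers lies above the collagen level at E12.5 and E13.5, and little above it at E11.5 (12.4 against 11.9 CPM).

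In mesenchyme all 4 members were higher at E12.5 than at E11.5, and Nfia, Nfib and Nfic then stayed level while Nfix went on. Nfib, the most abundant by UMIs, was at 213, 626 and 620 CPM over the 3 stages, with intervals of 208 to 218, 618 to 635 and 612 to 627. Nfia was at 77.6, 207 and 216 CPM, and Nfic at 29.9, 66.8 and 71.9 CPM. Nfix was at 14.4 CPM (13.2 to 15.8), 104 (101 to 108) and 183 (179 to 187), so its intervals were apart at every stage.

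The log2 ratio of E12.5 over E11.5 in mesenchyme was 1.42 for Nfia (interval 1.35 to 1.48), 1.55 for Nfib (1.51 to 1.59), 1.16 for Nfic (1.05 to 1.27) and 2.86 for Nfix (2.72 to 3.00). All 4 passed 2-fold there, as did 12.3% of the 15591 genes with at least 20 UMIs over both stages, and since the members were chosen for their stage pattern nothing is read from the count. For E13.5 over E12.5 the ratios were 0.06, -0.02 and 0.11 for Nfia, Nfib and Nfic and 0.81 (0.75 to 0.86) for Nfix. None of the 4 passed 2-fold over that day, against 4.35% of all genes. The day between E11.5 and E12.5 therefore held nearly all of the mesenchymal difference in 3 members, and Nfix differed on both days.

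Subsets of the mesenchyme, set by further marker lists, gave the same order. In cells with dermal markers Nfib was at 268, 650 and 629 CPM and Nfix at 23.7, 110 and 195 CPM (171, 527 and 1457 cells). In cells with meningeal markers (Aldh1a2, Foxc1, Zic1 and others) Nfib was at 159, 485 and 453 CPM and Nfix at 8.98, 60.4 and 109 CPM (236, 175 and 91 cells). The meninges are the coverings of the neural tube, and whether these cells came from them was not tested. The remaining mesenchyme, 1756, 1785 and 1928 cells, held Nfib at 217, 648 and 623 CPM and Nfix at 14.6, 107 and 176 CPM. Cells with meningeal markers had the lowest Nfix of these 3 subsets at every stage, with an interval at E13.5 (90.6 to 130) below that of cells with dermal markers (188 to 202). Sclerotome cells, the precursors of vertebrae, numbered 106 at E11.5. They had lower levels of every member than the mesenchyme as a whole, with Nfia at 46.0 CPM and Nfix at 5.18 CPM. They numbered 20 and 10 at the later stages and were not compared across them.

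**Figure D1:**
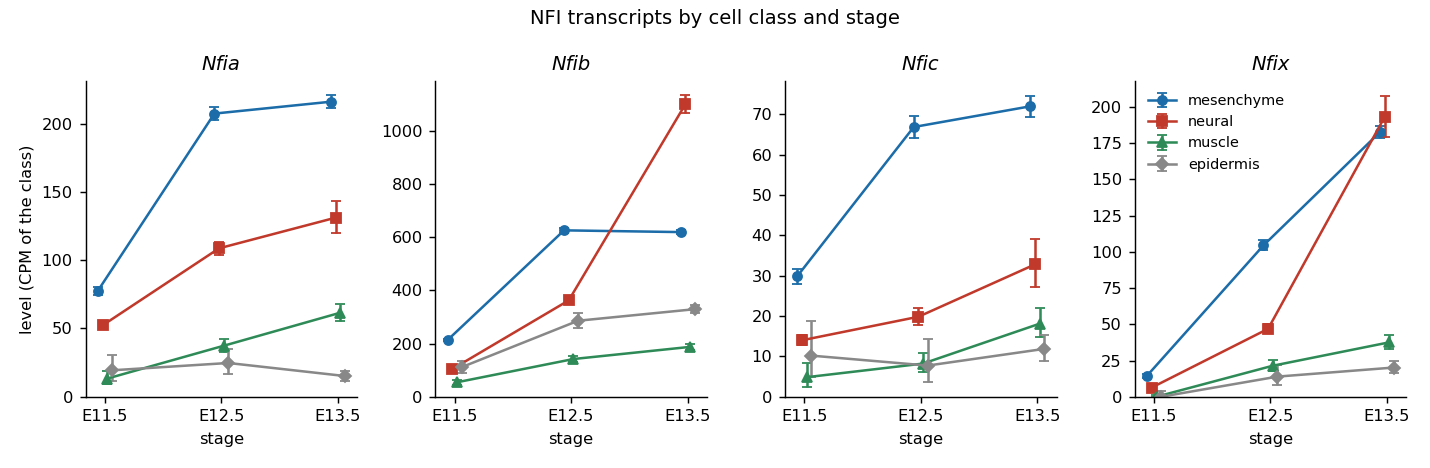
Level of each NFI gene in CPM of the class total (y axis, linear, own scale per panel) at each stage (x axis) in mesenchyme, neural cells, muscle and epidermis, 1 library per stage; bars are exact Poisson 95% intervals and cover counting error only. Mesenchymal Nfib stands at 626 CPM and then 620 CPM at the later stages, while neural Nfib reaches 1100 CPM at E13.5.

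Muscle had the lowest NFI levels of the 3 main classes, and 1 member was not seen there at E11.5. Nfix had 0 UMIs among the 132 muscle cells at E11.5, which allows up to 1.21 CPM at 3 UMIs, and was then at 21.4 CPM (17.8 to 25.5) and 37.6 CPM (32.8 to 42.9). Set against that floor of 3 UMIs, the Nfix level was 17.7-fold higher at E12.5 and 31.0-fold higher at E13.5. These folds leave out the counting error of the later values and are not lower limits. The free RNA estimated from collagen would give 11.2 and 27.2 CPM of Nfix at these stages, and its part in the muscle values was not tested.

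Nfib in muscle was at 54.5 CPM (45.7 to 64.6), 142 (133 to 152) and 188 (177 to 199). Nfia was at 13.3, 37.4 and 61.5 CPM, and Nfic at 4.85, 8.23 and 18.1 CPM, where collagen-based free RNA would give 4.53, 8.70 and 14.1 CPM of Nfic. The log2 ratio of E13.5 over E11.5 was 2.21 for Nfia (1.69 to 2.77), 1.78 for Nfib (1.52 to 2.05) and 1.90 for Nfic (1.04 to 2.90). All 4 members passed 2-fold between these stages, against 4.1% of 10610 genes. From E11.5 to E12.5 the 3 members other than Nfic passed it (3.02% of genes), and from E12.5 to E13.5 Nfic alone did (2.03%), with a log2 ratio of 1.14 (0.63 to 1.66). With a class margin of 2 that ratio was 0.88. A minimum of 5 markers gave 0.81, and then Nfia passed on the second day (1.01) and not on the first (0.81), and Nfic on the first (1.51). On the second day Nfia also passed with collagen-based free RNA subtracted (1.27), and Nfix in cells with Xist but no Y-linked UMI (1.16). After subtraction of collagen-based free RNA fewer than 3 UMIs of Nfic were left in muscle at E11.5 and at E12.5, and no ratio was taken.

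Muscle cells with fewer than 3 markers of a myocyte list (Myog, Mylpf, Acta1 and others) were called progenitors, and no progenitor marker was required. They held more NFI transcript than myocytes, the muscle cells with 3 or more of these markers, taken as differentiating. In the E13.5 library Nfib was at 388 CPM in 93 progenitors (359 to 419) and at 104 CPM in 250 myocytes (94.8 to 115), and Nfia at 125 and 35.2 CPM. In the E12.5 library Nfib was at 264 CPM in 85 progenitors and at 80.8 CPM in 186 myocytes. Both kinds of cell shared the stage pattern. In myocytes Nfib was at 31.3, 80.8 and 104 CPM over the 3 stages, and progenitors held 111 CPM at E11.5, where only 38 cells were assigned.

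Muscle cells with at least 2 of the mitotic genes Mki67, Top2a, Cenpf and Ube2c held more of every member at E13.5. Nfib was at 292 CPM in 113 such cells and at 118 CPM in the other 230, a log2 ratio of 1.31 (1.13 to 1.49), and Nfix at 54.5 and 26.2 CPM. Within myocytes the same split gave Nfib at 182 CPM in 61 cells and 70.0 CPM in 189 cells. In mesenchyme at E13.5 the mitotic cells differed little, with Nfib at 590 CPM in 815 cells and 633 CPM in 2745 cells, a log2 ratio of -0.10 (-0.14 to -0.06).

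Neural cells showed the highest Nfib of the 3 main classes at E13.5, and progenitors and neurons reached high levels at different stages. In neural progenitors (Sox2, Pax6, Hes5 and others), the dividing cells that line the neural tube, Nfib was at 828 CPM at E12.5 (799 to 858, 386 cells) and 192 CPM at E11.5 (184 to 200, 1020 cells). Nfia was at 288 CPM at E12.5 and 80.2 CPM at E11.5, Nfix at 126 and 12.2 CPM, and Nfic at 20.8 and 10.6 CPM, in the same order. The 44 progenitors at E13.5 held Nfib at 876 CPM (777 to 984), Nfia at 338 CPM and Nfix at 184 CPM. They were too few for the comparison of stages, which was set at 50 cells.

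In neurons (Tubb3, Elavl3, Stmn2 and others) Nfib was at 36.0, 229 and 1121 CPM over the 3 stages, in 1330, 1443 and 462 cells, with intervals of 33.2 to 39.1, 221 to 237 and 1086 to 1157. Nfix was at 1.70 CPM (1.13 to 2.45), 22.1 (19.8 to 24.7) and 192 (178 to 208). Nfia was at 31.4, 55.7 and 105 CPM, and Nfic at 17.8, 19.6 and 31.9 CPM. At E11.5 the neurons thus held less Nfib than the progenitors of the same library, while at E13.5 the neuronal Nfib lay above the progenitor interval.

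The log2 ratio of E12.5 over E11.5 was 1.85 for Nfia, 2.11 for Nfib, 0.97 for Nfic and 3.37 for Nfix in progenitors, where 9.12% of genes passed 2-fold. It was 0.82, 2.66, 0.15 and 3.71 for the same genes in neurons, where 6.92% did. For E13.5 over E12.5 the neurons gave 0.92 for Nfia, 2.29 for Nfib (2.23 to 2.36), 0.70 for Nfic and 3.12 for Nfix (2.92 to 3.32), and 5.74% of genes passed 2-fold. So 2 of the 4 members, Nfib and Nfix, passed 2-fold in neurons on each day, while in mesenchyme neither did on the second day. In neurons Nfia passed it too in 1 alternative on the first day (1.11) and in 2 on the second (1.13 and 1.38), and Nfic in 1 on the second (1.20). Across both days neuronal Nfib differed by 4.96 and Nfix by 6.82 (6.28 to 7.43) on the log2 scale, the Nfix value resting on 28 UMIs at E11.5. Collagen-based free RNA, an estimate that may be too high, would give 1.61 CPM of Nfix at E11.5, little under the neuronal level. After its subtraction 1.35 of these UMIs were left, and no neuronal Nfix ratio against E11.5 was taken. The part of free RNA in that level was not tested. Over all neural cells together Nfia, Nfib and Nfix passed 2-fold from E11.5 to E12.5, as did 9.85% of genes, and Nfib and Nfix from E12.5 to E13.5, as did 5.16%. The Nfia log2 ratio of the first day was 1.06 and was under 2-fold with median-of-ratios scaling (0.91), with collagen-based free RNA subtracted (0.85), with a class margin of 2 (0.98) and in cells with Xist but no Y-linked UMI (0.92).

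**Figure D2:**
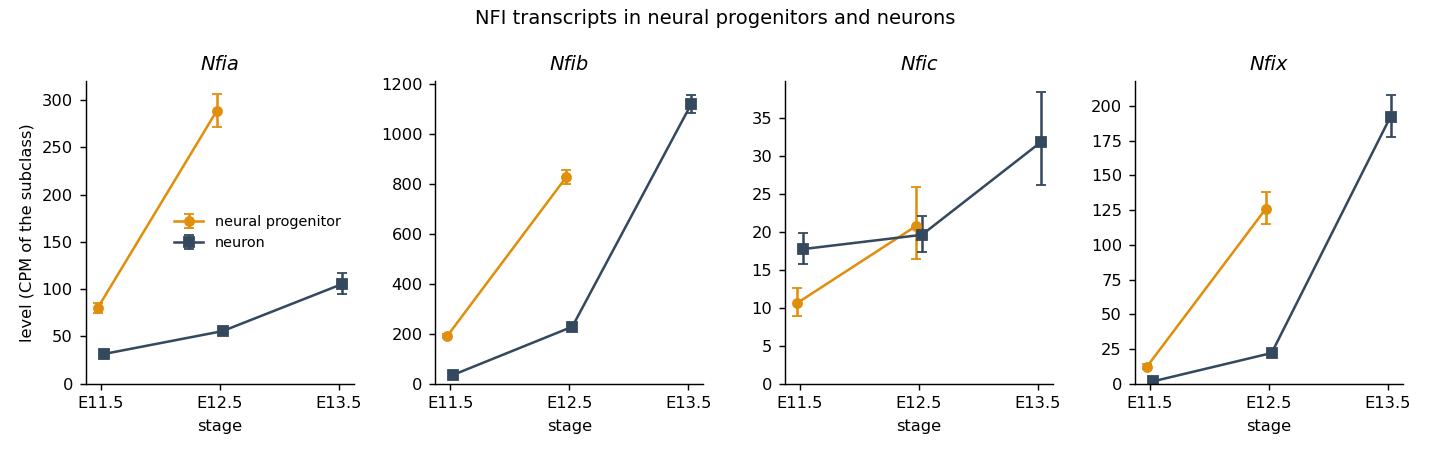
Level of each NFI gene in CPM (y axis, linear, own scale per panel) by stage (x axis) in neural progenitors and in neurons; bars are exact Poisson 95% intervals, and the 44 progenitors at E13.5 are not drawn because fewer than 50 cells were assigned. Progenitor Nfib stands at 828 CPM at E12.5 when neuronal Nfib is at 229 CPM, and neuronal Nfib reaches 1121 CPM at E13.5.

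The family's makeup in neurons changed with the stage. Nfib made up 41.5, 70.1 and 77.3% of the neurons' NFI UMIs, Nfia 36.2, 17.1 and 7.26%, Nfic 20.4, 6.02 and 2.20%, and Nfix 1.95, 6.79 and 13.3%. In mesenchyme Nfib was at 63.6, 62.3 and 56.8% and Nfia at 23.1, 20.6 and 19.8%, so the shares of these members moved less there. Mesenchymal Nfix, at 4.30, 10.4 and 16.8%, took a larger share at each later stage, as in neurons. These are shares of captured 3' ends, and how well each gene is captured may differ. The mix of neuron types, set by type genes below, differed by stage too. Dorsal excitatory neurons were 4.21, 20.5 and 31.0% of neurons and inhibitory ones 15.9, 29.7 and 18.4%. The part of this mix in the neuronal shares was not tested.

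Neurons were then split by type genes, a division added after the neuronal values were seen. No type was given to 73.8, 46.4 and 43.7% of neurons over the 3 stages. These untyped neurons held 25 UMIs of Nfix at E11.5 (2.09 CPM). Inhibitory neurons (2 or more of Pax2, Gad1, Gad2 and Slc32a1) held Nfib at 7.29, 247 and 1963 CPM, in 212, 428 and 85 cells, with intervals of 3.98 to 12.2, 231 to 264 and 1852 to 2080. Dorsal excitatory neurons (2 or more of Tlx3, Lmx1b and Drgx) held 12.8, 216 and 1153 CPM in 56, 296 and 143 cells. Both types had 0 UMIs of Nfix at E11.5 (up to 1.56 and 3.84 CPM at 3 UMIs), and then 21.5 and 304 CPM in the inhibitory and 18.9 and 213 CPM in the dorsal excitatory neurons at the later stages. Within each of these types, too, Nfib and Nfix were higher at each later stage, with intervals apart.

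Nfia in inhibitory neurons was at 6.25, 30.5 and 143 CPM. In dorsal excitatory neurons it was at 30.7, 37.4 and 77.9 CPM, and Nfic there was at 38.4, 25.6 and 28.2 CPM with overlapping intervals, the highest of the 4 members at E11.5. Motor neurons, 32 cells at E11.5, held Nfia at 159 CPM (130 to 193) and Nfib at 121 CPM (95.4 to 151), both above the inhibitory and dorsal excitatory neurons of that stage. Sympathetic neurons, which arise from the neural crest, numbered 19, 18 and 27 and held little Nfia (1, 0 and 2 UMIs). Their Nfib was at 48.5, 27.1 and 98.5 CPM, and Nfic was their leading member at E11.5 and E12.5, at 89.3 and 60.2 CPM.

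**Figure D3:**
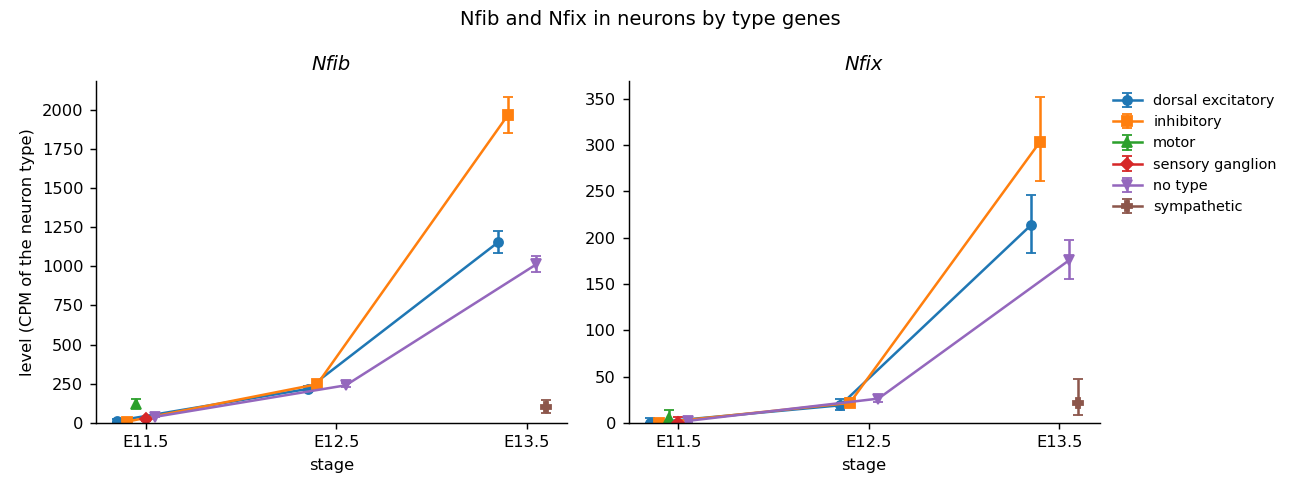
Level of Nfib and Nfix in CPM (y axis, linear) by stage (x axis) in neurons grouped by type genes, shown where at least 20 cells were found; bars are exact Poisson 95% intervals. At E13.5 inhibitory neurons stand at 1963 CPM of Nfib, dorsal excitatory neurons at 1153 CPM and sympathetic neurons at 98.5 CPM.

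Spinal neurons born at different times carry a known series of factors, Onecut genes in the earliest, then Zfhx and Pou2f2, then Neurod2 with the NFI genes. Of 14 such temporal genes measured in neurons, 5 were at least 2-fold higher and 8 at least 2-fold lower at E13.5 than at E11.5, with a median log2 ratio of -1.83 against 0.05 over all genes. Of all genes, 9.7% were at least 2-fold higher and 7.64% at least 2-fold lower. Neurod6 was at 258 CPM at E13.5 and 0.121 CPM at E11.5 (2 UMIs), a log2 ratio of 11.06 (9.20 to 14.10), and Neurod2 at 160 and 2.97 CPM (5.75). Onecut1 was at 0.292 CPM at E13.5 (1 UMI) and 32.1 CPM at E11.5, a log2 ratio of -6.78 (-12.09 to -4.30), and Onecut2 was at 24.3 and 219 CPM (-3.18). This list, like those below, was chosen with earlier results of these data known.

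Within a library, neurons with a UMI of Neurod2 held more Nfib than neurons without one. At E12.5 the levels were 501 CPM in 286 cells with Neurod2 and 168 CPM in 1157 cells without, a log2 ratio of 1.58 (1.47 to 1.68), and at E13.5 they were 1800 CPM in 123 cells and 883 CPM in 339 cells (1.03). Neurons with Zfhx3 held less. At E12.5 Nfib was at 109 CPM in 556 cells with Zfhx3 and 315 CPM in 887 without (-1.53), and at E13.5 at 663 CPM in 98 cells and 1297 CPM in 364 (-0.97). Pou2f2 split the neurons at E11.5, with Nfib at 18.7 CPM in 758 cells with it and 54.8 CPM in 572 without (-1.55), but at E13.5 the values were 1147 and 1114 CPM, with an interval of the log2 ratio from -0.07 to 0.15.

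Neural progenitors with a UMI of Sox9, which lies upstream of Nfia in spinal gliogenesis, held somewhat more Nfia and Nfib. At E11.5 Nfia was at 84.4 CPM in 712 cells with Sox9 and 69.8 CPM in 308 without, and Nfib at 209 and 150 CPM, log2 ratios of 0.27 and 0.48. At E12.5 Nfia was at 304 CPM in 297 cells and 229 CPM in 89, a log2 ratio of 0.41 (0.17 to 0.65). The difference between the stages in either kind of progenitor was larger than the difference between the kinds.

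Genes of early glia in the progenitors were described beside them. Of 15 gliogenic genes measured, 9 were at least 2-fold higher at E12.5 than at E11.5 and 0 at least 2-fold lower, with a median log2 ratio of 2.12 against 0.09 over all genes, of which 9.12% were at least 2-fold higher and 3.42% lower. Olig1, a factor of the oligodendrocyte lineage, was at 27.3 CPM at E12.5 and 0.240 CPM at E11.5 (3 UMIs), a log2 ratio of 6.83 (5.24 to 9.13). The glial genes Aldh1l1 and Mmd2 had log2 ratios of 5.50 and 4.66.

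In the muscle list of embryonic and fetal genes, 2 of 15 were at least 2-fold higher and 6 at least 2-fold lower at E13.5 than at E11.5, with a median log2 ratio of -0.77 against -0.13 over all genes, of which 4.1% were at least 2-fold higher and 10% lower. The 2 higher were Itga7 (1.20, on 27 and 5 UMIs) and Junb, named after their values were seen. Junb was at 34.7 CPM at E13.5 and 7.27 CPM at E11.5, a log2 ratio of 2.25 (1.56 to 3.04). The slow myosin gene Myh7 was at 1.72 and 71.1 CPM (-5.37, interval -6.45 to -4.45), Pax3 at 2.76 and 35.6 CPM (-3.69) and Fst at 5.34 and 59.4 CPM (-3.47). Eno3, a muscle enolase, was at 53.4 and 322 CPM (-2.59).

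In mesenchyme 4 of 10 adipose genes were at least 2-fold higher at E13.5 than at E11.5 and 1 was at least 2-fold lower, with a median log2 ratio of 0.71 against 0.03 over all genes, of which 15.1% were at least 2-fold higher and 6.5% at least 2-fold lower. Pparg, the main regulator of fat cells, was at 8.30 CPM at E13.5 and 0.0599 CPM at E11.5 (2 UMIs), a log2 ratio of 7.11 (5.25 to 10.17). Cebpa was at 3.52, Cebpb at 3.08 and Fabp4 at 1.90 on the same scale, and the lower gene was Prdm16 (-1.15), named after its value was seen. Cells with and without Pparg held close levels of the NFI family at E13.5. The summed NFI level was 1094 CPM in 91 cells with Pparg and 1090 CPM in 3469 cells without, and the interval of the log2 ratio ran from -0.07 to 0.08. Single members differed slightly, with Nfib at 675 and 618 CPM (0.13) and Nfia at 180 and 217 CPM (-0.27).

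Mesenchymal cells with a UMI of Ebf2 held more Nfib than those without it, and the gap was wider later. Ebf2 is a marker of brown fat precursors, but these cells were picked by that gene alone and were not typed further. The levels were 230 and 209 CPM at E11.5, 736 and 582 CPM at E12.5, and 769 and 558 CPM at E13.5, log2 ratios of 0.14 (0.06 to 0.22), 0.34 (0.30 to 0.38) and 0.46 (0.42 to 0.50). Nfix did not share this order, and was at 92.9 and 109 CPM at E12.5 and at 176 and 186 CPM at E13.5. Muscle cells were not split by Pax7, since fewer than 50 cells fell on one side.

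Developmental timing genes of the Lin28 pathway had ratios of the opposite sign in all 3 main classes. At E13.5 against E11.5, at least 2-fold lower were 5 of 7 measured in mesenchyme (6.5% of all genes), 2 of 6 in muscle (10%) and 6 of 8 in neural cells (10.6%), with median log2 ratios of -2.17, -0.85 and -1.82. In mesenchyme Trim71 was at -3.76, Lin28b at -3.02, Hmga2 at -2.22 and Hmga1 at -2.17. Of genes for proteins that work with NFI or bind similar sites, 10 were measured in mesenchyme, and 1 was at least 2-fold higher (Ski, 1.12) and 2 at least 2-fold lower (Foxa1, -2.21, and Pou2f1, -1.10), against 15.1 and 6.5% of all genes.

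**Figure D4:**
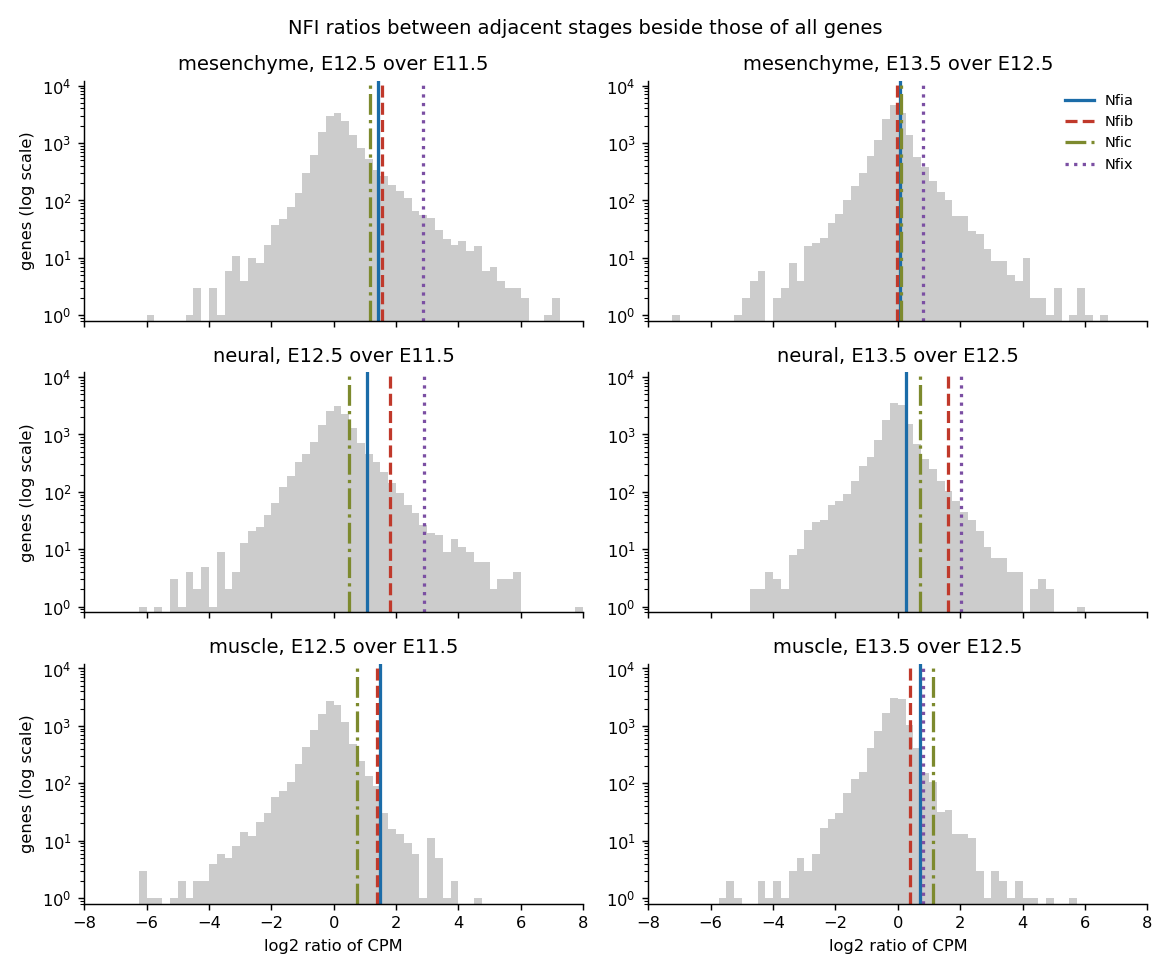
Number of genes (y axis, log scale) by log2 ratio of CPM between adjacent stages (x axis) in mesenchyme, neural cells and muscle, for genes with at least 20 UMIs over both stages and at least 1 UMI in each; vertical lines mark the NFI genes, and muscle Nfix is absent from E12.5 over E11.5 because it had 0 UMIs at E11.5. The mesenchymal lines of Nfia, Nfib and Nfic lie at 1.42, 1.55 and 1.16 on the first day and at 0.06, -0.02 and 0.11 on the second.

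Other cell types carried the family in other proportions. Epidermis was led by Nfib, at 111 CPM (91.3 to 134), 286 (258 to 317) and 330 (314 to 346) in 58, 88 and 293 cells, and its Nfix had 0 UMIs at E11.5 (up to 3.06 CPM at 3 UMIs) and was then at 13.9 and 20.2 CPM. Collagen-based free RNA would give 11.2 and 27.2 CPM of Nfix at the later stages, an estimate that may be too high. The E13.5 value lies under it and the E12.5 value little above, and the part of free RNA in them was not tested. Endothelium held Nfib at 262 CPM at E13.5 (89 cells) and 135 CPM at E11.5 (58 cells), a log2 ratio of 0.95 (0.70 to 1.21). Neural crest and Schwann cells held Nfib at 81.4, 144 and 130 CPM and Nfia at 22.9, 65.2 and 66.7 CPM in 103, 63 and 116 cells, so the difference lay on the first day as in mesenchyme. With collagen-based free RNA subtracted, the log2 ratio of E13.5 over E11.5 for Nfib there was -0.15 in place of 0.68. With a minimum of 5 markers it was 1.30, and the Nfib ratio of E13.5 over E12.5 was 0.50 in place of -0.14.

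In macrophages Nfic was the highest member at every stage, though only 43 cells were assigned at E11.5. At E13.5 it was at 50.5 CPM (44.1 to 57.6, 322 cells) and at E12.5 at 65.7 CPM (54.8 to 78.1, 93 cells), beside Nfib at 46.2 and 29.3 CPM, the intervals of both genes overlapping at E13.5. The macrophage Nfib lay below the collagen-based free RNA level at both stages (73.6 and 39.2 CPM), and Nfic above its own (14.1 and 8.70 CPM). In erythroid cells picked without globin markers Nfix was the leading member at E12.5, at 29.7 CPM (19.6 to 43.2, 27 UMIs in 52 cells), with 2 UMIs each of Nfia and Nfib. It was at 8.29 CPM at E11.5 and 2.56 CPM (2 UMIs) at E13.5.

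At equal depth most mesenchymal cells came to hold a family transcript, and more than 1 member. After thinning to 4000 UMIs, 69.2, 94.3 and 94.9% of mesenchymal cells had a UMI of any member over the 3 stages (interval at E11.5 from 67.3 to 71.1%). The shares were 16.7, 42.8 and 52.5% in muscle and 35.7, 56.3 and 81.2% in neural cells. For neural progenitors they were 61.8, 96.6 and 97.7%, and for neurons 15.6, 43.7 and 79.2%. As a background, macrophages gave 20.9, 31.2 and 30.4% with Nfic as the main source, and their Nfib share was 4.65, 5.38 and 11.2%. The median depths before thinning at E13.5 were 12769.5 UMIs in macrophages and 10132.5 in mesenchyme.

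Cells with 3 or 4 members detected made up 3.08, 25.5 and 35.4% of mesenchyme at the 3 stages, 0.748, 8.28 and 21.4% of neural cells and 0, 1.11 and 4.96% of muscle cells. Detection of one member went with that of another more closely in neurons than in mesenchyme. At E13.5 Nfix was found in 50.7% of mesenchymal cells with Nfib and 42.5% of those without. In neurons of that stage Nfix was in 47.8% of 347 neurons with Nfib and 5.22% of 115 without, and Nfia in 30.8 and 0.870%. Nfic did not share this, at 11.8 and 11.3%. At E11.5 Nfib was already found in 34.4% of the 90 neurons with Nfia and in 5.16% of the 1240 without.

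**Figure D5:**
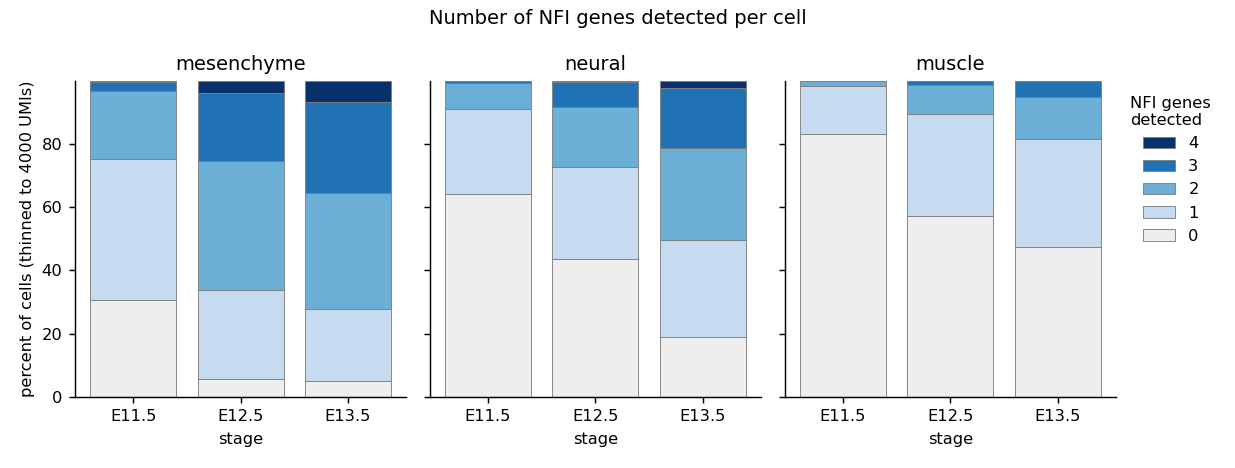
Share of cells in percent (y axis, stacked) by the number of NFI genes with a UMI, after thinning each cell to 4000 UMIs, at each stage (x axis) in mesenchyme, neural cells and muscle. Cells with none make up 5.14% of mesenchyme at E13.5 and 30.8% at E11.5, and 47.5% and 83.3% of muscle, in the same order.

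Genes with the most similar pattern were ranked over 22 sums of a class at a stage with at least 50 cells each, by Pearson's r of log2(CPM + 1) among 12528 genes. Closest to Nfia were Fgfr1 (0.88), Kat6b (0.88), P4ha3 (0.87), Tshz2 (0.86) and Pcdh19 (0.86). Closest to Nfib were Cbx6 (0.89), Bend5, Smarca1, Fndc10 and Pgap4 (0.84). Tnfsf12 (0.92), Nrp1, Stard9, Slc50a1 and Csf1 (0.88) were nearest to Nfic, and Agtr2 (0.81), Eln, Rtl3, Fgf18 and Lox (0.78) to Nfix. Among members, Nfia and Nfib had an r of 0.82, and Nfic and Nfix 0.36. These values describe 22 sums that share 3 libraries and are not a test. Among the sums, at every stage, is the erythroid class gated with globin markers, which may hold other cells.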

How the data were processed

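UMI counts per gene and droplet were deposited by the authors as unfiltered 10x matrices, 1 per stage; Cell Ranger 8.0.1 and the GRCm39 build are named in the submitters' processing notes. Barcodes of 4000 UMIs or more were kept, thinned to 4000 UMIs and assigned to 11 classes with 116 markers. UMIs were then summed per class and library without thinning. Levels are CPM with exact Poisson intervals, ratios have exact conditional binomial intervals, and shares have Clopper-Pearson intervals from thinned cells. The interval code was tested on simulated data. Doublets called by scrublet, 2.84, 1.98 and 2.53% of cells over E11.5 to E13.5, were kept and left out as an alternative.

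Members and gene lists were chosen with earlier results of these data known. Of each list up to 4 genes with the largest absolute log2 ratio are named, and for each member the 5 genes closest in pattern. One gene that this rule names is not reported here. The erythroid markers without globin, the collagen estimate of free RNA, the neuron types, the splits of neurons by temporal genes and the separate alternatives for neurons and progenitors were added after the data were seen. Promoters come from RefSeq for 3 of 4 members, on GRCm38.p6, another build than the matrices. Python 3.11.15, numpy 2.4.6, scipy 1.17.1, pandas 2.3.3 and scanpy 1.11.5 were used.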

Additional observations from a re-analysis of the deposited data

Results flagged for a closer look

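Nfia at E13.5 over E12.5 had a log2 ratio of -0.703 in epidermis (15.2 CPM at E13.5 and 24.7 CPM at E12.5, from 73 and 32 UMIs) and 0.72 in muscle, opposite directions under the same contrast. Nfic over the same day had -0.38 in macrophages (50.5 CPM at E13.5 and 65.7 CPM at E12.5) and 1.14 in muscle. Each of the 4 counting intervals leaves out 0. Collagen-based free RNA, an estimate that may be too high, would give 22.8 CPM of Nfia at E12.5 and 30.1 CPM at E13.5. After its subtraction fewer than 3 UMIs of epidermal Nfia were left at each of these stages, and no ratio was taken. The same held for muscle Nfic at E12.5. With 1 library per stage neither difference between classes was tested.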

How the results depend on the processing

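Of 64 ratios of a member between stages within a class, 64 kept their sign with a filter on genes and mitochondrial UMIs, 63 with cells of 8000 UMIs or more and with globin left out of the erythroid markers, 62 with median-of-ratios scaling, 61 without called doublets, 60 with a class margin of 2, 59 with a minimum of 5 markers and when only cells with Xist but without Y-linked UMIs were kept. With free RNA subtracted, a ratio was taken where at least 3 UMIs were left at both stages, a minimum set after the values were seen: 61 of 61 kept their sign with the globin estimate, and 43 of 47 with the collagen estimate, which was chosen after the data were seen. That last subtraction reversed Nfib in neural crest and Schwann cells for E13.5 over E11.5 (-0.15), and changed the sign of Nfib in mesenchyme (-0.02 without it) and Nfia in crest and Schwann cells (0.03) for E13.5 over E12.5 and of Nfic in endothelium (0.23) for E13.5 over E11.5. It left no UMI of Nfia, Nfib or Nfix in macrophages at E12.5 and E13.5. The cause of the changes was not tested.

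For E13.5 over E11.5, collagen subtraction gave 1.505 for Nfib in muscle, and 3.59 for Nfib and 5.25 for Nfix in neural cells. A minimum of 5 markers gave 1.41 for Nfia and 1.46 for Nfib in mesenchyme and 3.76 for Nfib in neural cells. Cells of 8000 UMIs or more gave 1.67, 3.14 and 1.88 for neural Nfia, Nfib and Nfic. A class margin of 2 gave 3.52 for neural Nfib, and median-of-ratios scaling, which shifted all neural ratios by -0.16 and all muscle ratios by 0.21, gave 1.17 and 3.24 for neural Nfia and Nfib. Without a minimum of UMIs, 5311 genes were at least 2-fold higher and 2895 lower in mesenchyme, 2818 and 3763 in muscle, and 4028 and 5028 in neural cells, against 2376 and 1024, 435 and 1064, and 1937 and 1527 with it. The neuronal ratio ran from 1.63 to 2.06 for Nfia, 4.63 to 5.55 for Nfib and 0.53 to 1.46 for Nfic over 5 alternatives, and from 6.51 to 7.65 for Nfix over the 4 that gave a value. Collagen subtraction gave none for Nfix there, with fewer than 3 UMIs left at E11.5. Nfic in neurons at E12.5 over E11.5 ran from -0.35 to 0.63.

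Without thinning, any member was found in 94.7, 99.4 and 99.1% of mesenchymal cells over the 3 stages, 50.8, 70.8 and 79.6% of muscle cells and, at E11.5 and E12.5, 55.9 and 66.5% of neural cells. Among those cells with Xist the thinned share was 72.1% in mesenchyme at E11.5, 95.2% at E12.5 and 52.3% in neural cells at E12.5. Splitting unthinned cells gave log2 ratios of the summed family of 0.013, 0.32 and 0.33 for Ebf2 over the 3 stages, and 0.64 for Sox9 at E11.5. No paired analysis was possible because each stage has 1 library and no test was made.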
